A study of Danio rerio with 40 samples.

Results

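Neuropeptide precursor genes were examined in brains and whole eyes of zebrafish adults with the cyp1b1 knockout allele wh5 and of wild-type (WT) fish. The members are 44 genes named by symbol, taken from the authors' deposited tables of wh5 against WT, and 39 of them are listed for brain and 29 for eye, out of 20454 genes listed in either table. The libraries number 40, with 5 for each of the 8 combinations of organ, sex and genotype, and each comparison sets 10 wh5 samples (females and males together) against 10 WT samples of the same organ. No treatment and no exact age are given, the mutation is in the whole fish and not in 1 cell type, and the labels do not say whether brains and eyes came from the same animals. Nor do they say that every sample is a separate fish, so p-values measure the spread between samples, part of which may be technical. Each deposited value is a model estimate with its standard error (SE), and no value of a single library is used. Spread between samples is thus seen here only through the SE.

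Neuropeptides are made as longer precursors that are cut by prohormone convertases, trimmed by carboxypeptidase E, often amidated by Pam, and stored in dense core vesicles together with granins. They are released onto neighbouring or distant cells and act mostly through G protein-coupled receptors. In the fish brain many are made in small groups of hypothalamic and preoptic neurons, and in the retina several, such as VIP, neuropeptide Y, somatostatin and tachykinins, are made in amacrine cells. Cyp1b1 is a cytochrome P450 that acts on steroids and retinoids, and several of the peptides here lie on steroid-responsive axes.

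Some facts of the whole data set bear on all values. The cyp1b1 transcript itself was not called lower in wh5: its log2 fold change in the authors' deposited tables was -0.17 in brain (adjusted p = 0.818, SE 0.14) and 0.54 in eye (adjusted p = 0.016, or 0.464 under an empirical null, SE 0.14), so its level does not check the genotype labels. An empirical null scales the test statistics to the centre and spread of those of all genes. Sample titles and tissue fields disagree on the organ throughout, and the titles were followed. The base mean, which is the mean of normalised counts over both genotypes, follows the organ named for each comparison. In the authors' deposited tables rhodopsin (rho) had 632710 in eye and 1359 in brain. Base means are pooled over samples, so they do not check the titles of single samples.

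No neuropeptide precursor gene was called in either organ. The call rests on the adjusted p of the authors' DESeq2 model, a Benjamini-Hochberg value over all listed genes, with 0.05 as the limit. In brain 0 of 39 members passed, against 0.736% of all genes, and in eye 0 of 29 passed, against 1.67% of all genes. At shares of that size, lists this short hold few called genes or none. Those shares include genes of the cyp1b1 chromosome: 142 genes were called in brain and 325 in eye, and 65 and 234 without that chromosome. At an unadjusted p below 0.05 there were 4 members in brain (10.3%), beside 8.62% of all genes, and 1 in eye (3.45%), beside 14.2% of all genes. The median log2 fold change of the members was 0.03 in brain and 0.04 in eye, with -0.0014 and 0.0086 over all genes. In brain 23 members lay above 0 and 16 below, and in eye 18 lay above and 11 below.

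The intervals show which changes the data leave room for. A 2-fold change in either direction lay outside the 95% interval for 32 of 39 members in brain and for 22 of 29 in eye. These are 82.1% and 75.9%, beside 83.6% and 85.0% of all genes. A change of 1.41-fold lay outside it for 17 of 39 members in brain and 15 of 29 in eye, beside 12365 of 19300 genes and 11251 of 19429. In both organs this was a smaller share of the members than of all genes. The widest intervals belonged to scg5 in both organs.

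**Figure D1:**
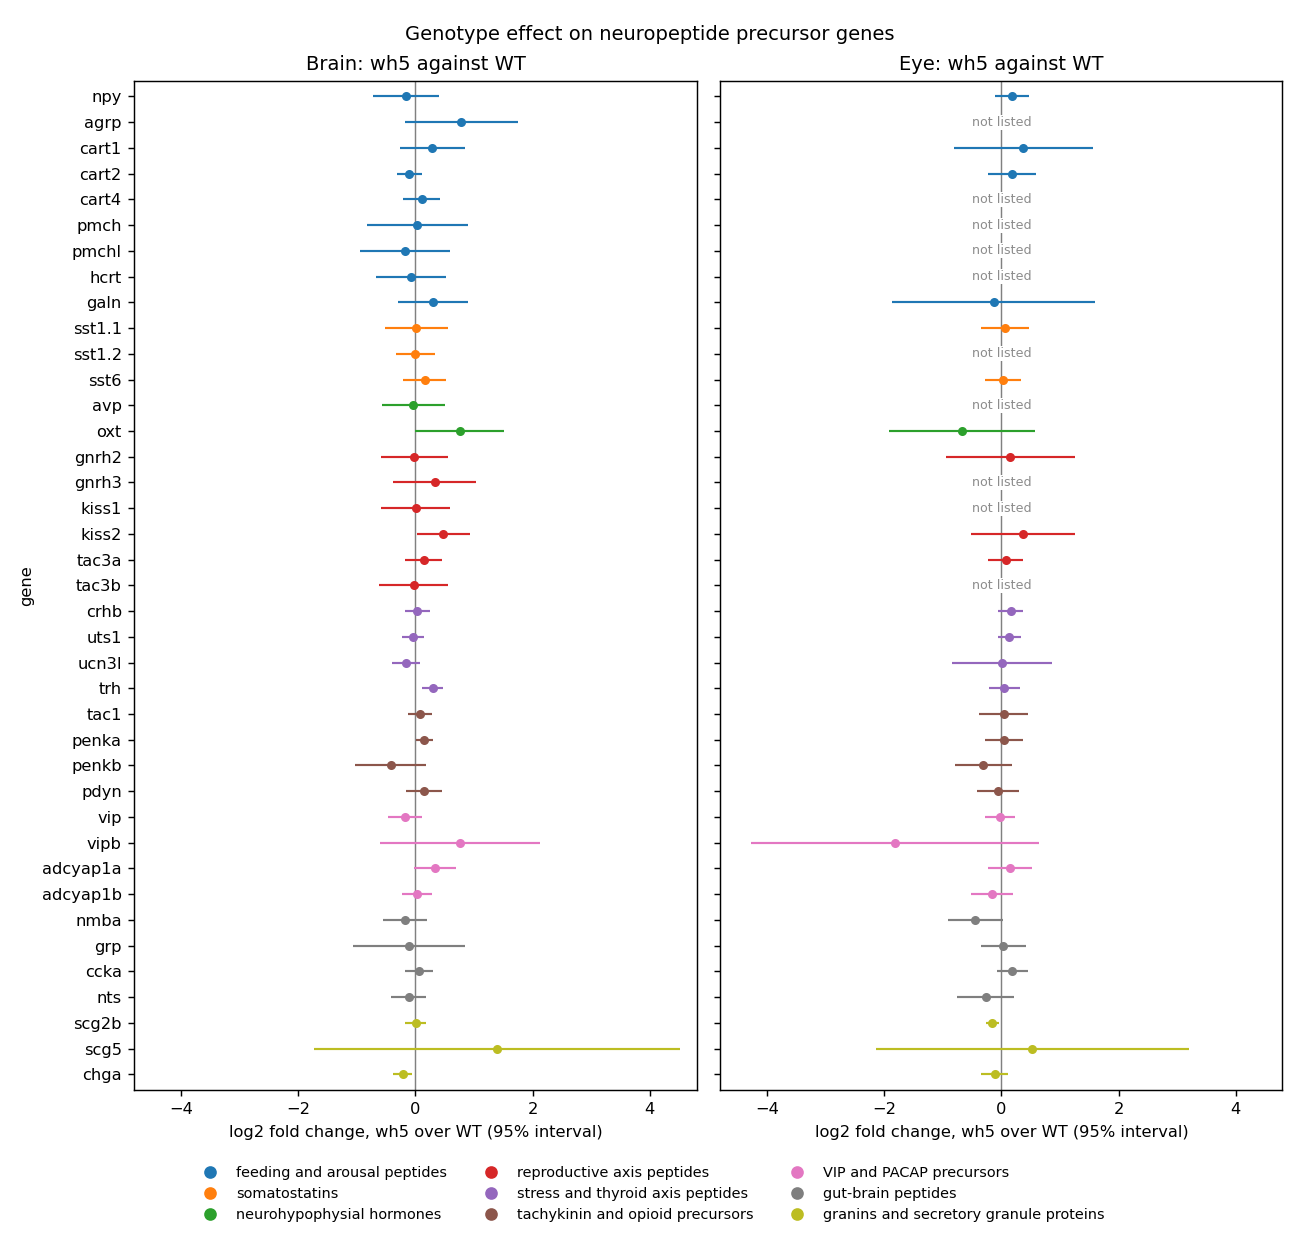
Log2 fold change of each precursor gene, wh5 over WT, in brain (left) and eye (right), with bars for the 95% interval from the authors' SE and colours for the role of the peptide. The points lie between -0.42 and 1.39 in brain and between -1.82 and 0.53 in eye, all intervals span 0 except those of kiss2, trh, penka and chga in brain and scg2b in eye, and 10 genes shown for brain are not listed for eye.

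The organs differ first in which precursors they list. Of the 44 members, 29 are in both tables, 10 are in the brain table and not in the eye table, and 5 (crha, cart3b, qrfp, sst3 and cckb) are under these symbols in neither. The 10 listed for brain alone are avp, hcrt, pmch, pmchl, agrp, kiss1, gnrh3, cart4, sst1.2 and tac3b, most of which are known from hypothalamic or other deep brain neurons. The lowest base mean in either table is just under 2 (1.96 in brain and 1.98 in eye), and no source used here states the authors' filter, so a gene that is not listed cannot be read as a gene at 0. The somatostatin-family gene that RefSeq gives sst3 as an older name for is listed as cort. Its log2 fold change in the authors' deposited tables was -0.17 in brain (adjusted p = 0.765, SE 0.12) and 0.10 in eye (adjusted p = 0.821, SE 0.16), and it is not counted among the members.

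Among the 29 shared members, 27 had the higher base mean in brain. The median ratio of brain to eye was 6.18, whereas over all 18275 genes in both tables it was 1.04. The tables were normalised separately, so these ratios are a description and were not tested. The largest ratio was that of oxt, the precursor of the fish oxytocin, with a base mean of 7387 in brain and 4.41 in eye in the authors' deposited tables. The galanin gene galn had 789.1 and 12.8, and the PACAP gene adcyap1b had 16787 and 448.1, in the same deposited tables of the authors. By the authors' deposited tables the granin gene scg2b had base means of 23788 and 3837, the chromogranin A gene chga 7228 and 332.7, and npy 2630 and 482.8, in brain and eye respectively. Closer to even in those tables deposited by the authors were uts1, with 1778 and 642.4, and the cholecystokinin gene ccka, with 1094 and 557.6. The exceptions were vip and grp. In the authors' deposited tables vip, which encodes vasoactive intestinal peptide, had a base mean of 959.7 in brain and 1231 in eye. The gastrin-releasing peptide gene grp had 17.6 in brain and 62.5 in eye in the authors' deposited tables. The corticotropin-releasing hormone gene crhb was close to even, at 934.3 in brain and 850.9 in eye by the authors' deposited tables. Base means are not divided by transcript length, so they do not rank one gene against another.

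**Figure D2:**
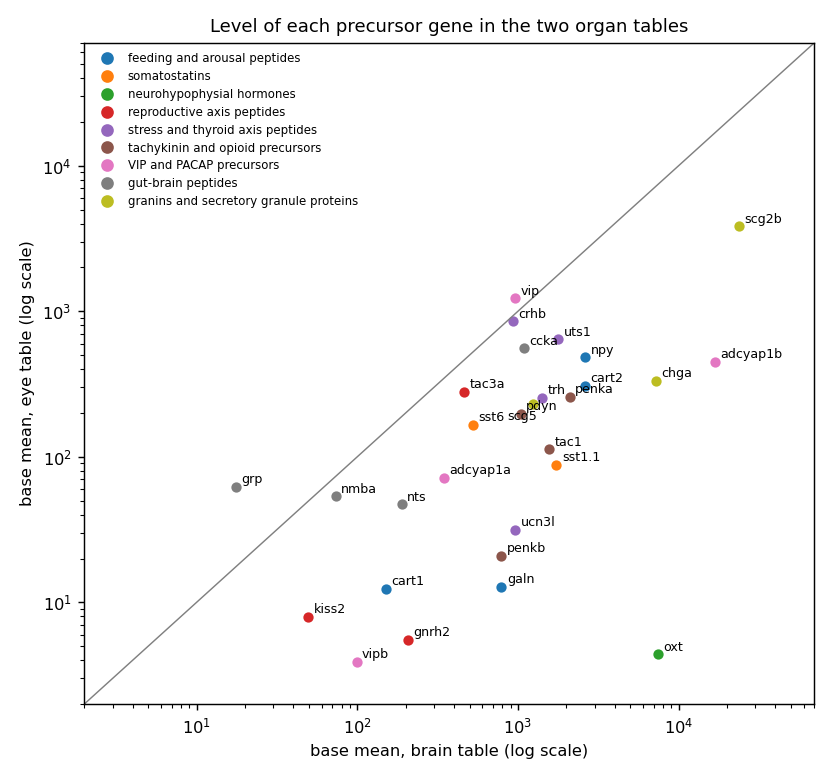
Base mean of each of the 29 precursor genes listed for both organs, brain on the horizontal and eye on the vertical axis, both on a log scale, coloured by role, with the line of equal values. All but vip and grp lie below the line, and oxt lies farthest from it.

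Among the hypothalamic releasing peptides, trh stood nearest to a call in brain. It encodes the precursor of thyrotropin-releasing hormone, which drives the thyroid axis in mammals. In the authors' deposited table for brain its log2 fold change was 0.29 (SE 0.09, unadjusted p = 0.00176, adjusted p = 0.131) at a base mean of 1415, and its 95% interval in fold was 1.08 to 1.39. In eye trh had a log2 fold change of 0.05 (adjusted p = 0.916, SE 0.14) in the authors' deposited table. The eye minus brain difference of the trh effects was -0.24 (adjusted p = 0.727, SE 0.17, normal test over all shared genes), so the organs were not shown to differ.

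The peptides of the stress axis had no call in either organ. These are crhb, which encodes the peptide that drives pituitary corticotropin release, and its relatives uts1 (urotensin 1) and ucn3l (urocortin 3). In the authors' deposited table for brain the log2 fold changes were 0.03 (SE 0.11) for crhb, -0.04 (SE 0.10) for uts1 and -0.16 (SE 0.13) for ucn3l. The 95% interval in fold was 0.885 to 1.18 for crhb in brain and 0.853 to 1.11 for uts1, so neither leaves room for a 1.41-fold change there. In eye the authors' deposited table gives 0.16 (adjusted p = 0.540, SE 0.11) for crhb, 0.13 (adjusted p = 0.579, SE 0.10) for uts1 and 0.01 (SE 0.44) for ucn3l. The 95% interval of ucn3l in eye was wide, from 0.556 to 1.83 in fold, at a base mean of 31.5 in the authors' deposited table.

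The neurohypophysial hormones oxt and avp had no call, and both had brain SEs that were wide for their level, at the percentiles 99.4 and 97.4 of their neighbours. In the authors' deposited table for brain, oxt had a log2 fold change of 0.75 (SE 0.39, unadjusted p = 0.0501, adjusted p = 0.580), with a 95% interval in fold of 0.9997 to 2.85. For avp, the precursor of the fish vasopressin (vasotocin), the authors' deposited table for brain gives -0.04 (adjusted p = 0.987, SE 0.27). In eye oxt had -0.68 (adjusted p = 0.688, SE 0.63) in the authors' deposited table, at the base mean of 4.41 given above. Of all 29 shared members oxt had the smallest unadjusted p for a difference between the organs, at -1.43 for eye minus brain (SE 0.74, unadjusted p = 0.0536, adjusted p = 0.619, normal test).

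Of the reproductive axis, kiss2 was 1 of the 4 brain members under an unadjusted p of 0.05. Kisspeptins act upstream of the gonadotropin-releasing hormone neurons in mammals. The authors' deposited table for brain gives kiss2 a log2 fold change of 0.48 (SE 0.23, unadjusted p = 0.0373, adjusted p = 0.530) at a base mean of 49.4. Its paralog kiss1, known from the habenula in zebrafish, had 0.0065 (adjusted p = 0.998, SE 0.30) in the authors' deposited table for brain. The gonadotropin-releasing hormone genes had -0.02 (SE 0.29) for gnrh2 and 0.33 (SE 0.36) for gnrh3 in the authors' deposited table for brain. The neurokinin B genes had 0.14 (SE 0.16) for tac3a and -0.03 (SE 0.30) for tac3b in the same brain table deposited by the authors. In eye the 3 listed genes of this group, kiss2, tac3a and gnrh2, had log2 fold changes from 0.08 to 0.37 in the authors' deposited table, with base means of 7.99, 278.5 and 5.51.

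The feeding and arousal peptides had no member under an unadjusted p of 0.05 in either organ. The appetite-promoting genes npy and agrp had log2 fold changes of -0.16 (SE 0.29) and 0.78 (adjusted p = 0.718, SE 0.49) in the authors' deposited table for brain. The appetite-restraining cart genes had 0.29 (SE 0.28) for cart1, -0.10 (SE 0.11) for cart2 and 0.11 (SE 0.16) for cart4 in the authors' deposited table for brain. The melanin-concentrating hormone genes had 0.03 (SE 0.44) for pmch and -0.18 (SE 0.39) for pmchl in that table deposited by the authors. The wake-promoting hypocretin gene hcrt had -0.07 (SE 0.31) and galn, which promotes sleep in zebrafish, 0.30 (SE 0.31) in the authors' deposited table for brain. In eye, the authors' deposited table gives npy 0.18 (adjusted p = 0.642, SE 0.15) and cart2 0.18 (adjusted p = 0.761, SE 0.21). Also in eye, and at base means of 12.5 and 12.8, log2 fold changes were 0.37 (SE 0.60) for cart1 and -0.13 (SE 0.89) for galn in the authors' deposited table.

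The opioid and tachykinin precursors include another brain member under an unadjusted p of 0.05. The proenkephalin gene penka had a log2 fold change of 0.15 (SE 0.08, unadjusted p = 0.0482, adjusted p = 0.572) in the authors' deposited table for brain. Its paralog penkb had -0.42 (adjusted p = 0.777, SE 0.31), the lowest brain value among the members, in the authors' deposited table. The prodynorphin gene pdyn had 0.15 (SE 0.15) and the substance P gene tac1 0.08 (SE 0.11) in the authors' deposited table for brain. In eye these genes had log2 fold changes from -0.31 for penkb to 0.04 for penka, with adjusted p-values from 0.625 upwards, in the authors' deposited table.

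Somatostatins, which restrain hormone release, lay near 0 in both organs. In the authors' deposited table for brain the log2 fold changes were 0.02 (SE 0.27) for sst1.1, -0.00033 (SE 0.17) for sst1.2 and 0.16 (SE 0.19) for sst6. The authors' deposited table for eye gives 0.06 (SE 0.21) for sst1.1 and 0.02 (SE 0.16) for sst6. The genes sst1.1 and sst1.2 are tandem duplicates by name and may share reads, and no source used here states how such reads were counted.

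The VIP and PACAP precursors, which act through related receptors that raise cyclic AMP, had no member under an unadjusted p of 0.05. The authors' deposited tables give vip a log2 fold change of -0.18 in brain (adjusted p = 0.805, SE 0.15) and -0.02 in eye (adjusted p = 0.961, SE 0.13). In the RefSeq gene table, vip is the 1 brain-listed member of 38 with a known place that lies on the chromosome of cyp1b1, within 10 Mb of it. The paralog vipb had 0.76 in brain (SE 0.70) and -1.82 in eye (SE 1.25) in the authors' deposited tables, at base means of 99.1 and 3.91. Those vipb estimates have opposite signs and wide errors, and their difference of -2.59 (adjusted p = 0.651, SE 1.43, normal test) did not pass. The PACAP genes had 0.33 (SE 0.18, unadjusted p = 0.0687) for adcyap1a and 0.03 (SE 0.13) for adcyap1b in the authors' deposited table for brain. In eye the authors' deposited table gives 0.15 (SE 0.19) for adcyap1a and -0.16 (SE 0.18) for adcyap1b.

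Of the peptides shared between gut and brain, nmba came nearest to the unadjusted threshold in eye. The authors' deposited table for eye gives this neuromedin B gene a log2 fold change of -0.45 (SE 0.24, unadjusted p = 0.0637, adjusted p = 0.383), and that for brain -0.17 (SE 0.19). The neurotensin gene nts had -0.12 (SE 0.15) in brain and -0.27 (SE 0.25) in eye, and the cholecystokinin gene ccka 0.06 (SE 0.12) and 0.19 (SE 0.13), in the authors' deposited tables. For grp the authors' deposited tables give -0.11 (SE 0.49) in brain and 0.03 (SE 0.19) in eye, where its base mean was higher.

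The granins and the granule protein gene scg5 held the smallest and the largest errors among the members in eye. Granins are acidic proteins of the dense core vesicle that are themselves cut into peptides. In the authors' deposited table for eye scg2b had a log2 fold change of -0.16 (SE 0.06, unadjusted p = 0.00771, adjusted p = 0.153), the 1 eye member under an unadjusted p of 0.05. In brain, where its base mean was 23788, scg2b had 0.0035 (adjusted p = 0.996, SE 0.09) in the authors' deposited table. The difference of the scg2b effects, eye minus brain, was -0.16 (adjusted p = 0.733, SE 0.11, normal test). The chromogranin A gene chga had -0.22 in brain (SE 0.08, unadjusted p = 0.00882, adjusted p = 0.300) and -0.11 in eye (adjusted p = 0.721, SE 0.12) in the authors' deposited tables.

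The gene scg5 encodes 7B2, a chaperone of the convertase Pcsk2 and not itself a classical neuropeptide. Its log2 fold change was 1.39 in brain (adjusted p = 0.896, SE 1.60) and 0.53 in eye (adjusted p = 0.906, SE 1.36) in the authors' deposited tables. Its base means of 1236 in brain and 231.9 in eye lay at the percentiles 79.5 and 40.5 of all listed genes. The SE of scg5 exceeded that of each of the 500 genes nearest to it in base mean, in brain and in eye. It was 20.4 times their median in brain and 10.1 times in eye. The 95% interval of scg5 in fold ran from 0.299 to 22.9 in brain, so the brain data say little about the direction or size of its change.

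Most precursor genes had wide errors for their level in brain, as did several other lists. Each SE was set beside the SEs of the 500 genes nearest in base mean, as a description with no test. In brain 37 of 39 members had an SE above the median of their 500 neighbours, and 21 had one above at least 90% of them. The median member exceeded 91% of its neighbours, with an SE 1.72 times their median. The 7 members at or above the 99th percentile in brain were npy, pmch, galn, sst1.1, oxt, penkb and scg5. Apart from scg5, the largest ratio among these was that of oxt, with an SE 5.01 times the median of its neighbours. The brain members under their neighbours' median were kiss2 and nmba.

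In eye the same measure was closer to the middle. There 20 of 29 members had an SE above the median of their neighbours, 3 (galn, vipb and scg5) lay at or above the 90th percentile, and the median member exceeded 61.8% of its neighbours. For the 29 members in both tables the median percentile in brain was 89.8. Neuropeptide receptor genes in brain had a median percentile of 45.8 over 56 genes, peptide processing and dense core vesicle genes 75.6 over 27, and hypothalamic neuron transcription factors and dopamine genes 77.5 over 28. Other neuropeptide genes in brain were nearer to the precursors, with a median percentile of 85.6 over 33 genes, 28 of them above the median of their neighbours and 11 at or above the 90th percentile. Lists of other kinds also had wide errors in brain, with 86.2 for 19 muscle markers, 92.4 for 22 immediate early genes and 99 for 30 retinal markers.

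The width of the errors sets what could have been called. The smallest absolute test statistic among called genes was 3.56 in brain and 3.34 in eye. At its own SE a brain gene would thus have needed a fold of 1.21 for penka, 1.26 for trh, 2.03 for npy, 2.59 for oxt, 2.98 for pmch and 5.58 for vipb. In eye the fold needed was 1.15 for scg2b, 1.42 for npy, 1.35 for vip and 7.79 for galn.

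**Figure D3:**
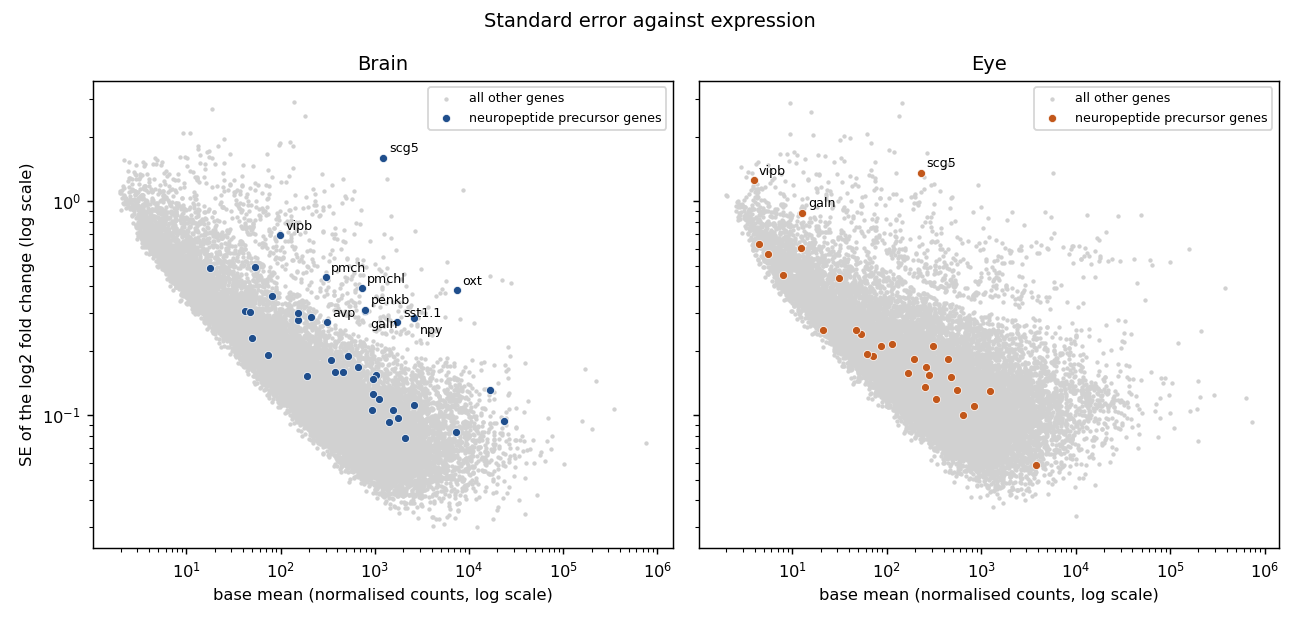
SE of the log2 fold change against base mean, both on a log scale, for precursor genes (coloured) and all other genes (grey), in brain (left) and eye (right), with names for members at or above the 97th percentile of SE among their neighbours. In brain most coloured points lie in the upper part of the grey cloud, and scg5 lies above its neighbours in both panels.

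The genotype effect on a precursor gene was not shown to differ between brain and eye for any of the 29 shared members. The test takes eye minus brain log2 fold changes, divided by the SE of that difference, with the organs treated as independent and two-sided normal p-values adjusted by Benjamini-Hochberg over 18275 genes. Of the members 0 passed, beside 0.0821% of all genes. At an unadjusted p below 0.05 there were also 0, beside 8.19% of all genes. The median absolute difference was 0.16 over the members and 0.16 over all genes.

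The other parts of the peptide system were read from lists of receptors, processing enzymes and further peptide genes. In brain none of 56 listed neuropeptide receptors, 27 processing and dense core vesicle genes or 33 other neuropeptide genes was called, beside 0.736% of all genes. Their median log2 fold changes were 0.10, 0.01 and 0.09. At an unadjusted p below 0.05 there were 5, 0 and 3 of them (8.93%, 0% and 9.09%), beside 8.62% of all genes. The brain receptors with the largest test statistics were qrfpra, a receptor of the RFamide peptide Qrfp, at 0.78 (adjusted p = 0.158, SE 0.26), and tacr3l, a neurokinin B receptor gene, at 0.42 (adjusted p = 0.252, SE 0.15), in the authors' deposited table. The largest statistics of the other brain lists were those of scg3 and furina among the processing genes, at -0.26 (SE 0.13) and -0.24 (SE 0.14), and of pomcb and nmbb among other peptides, at 0.61 (SE 0.23) and 0.56 (SE 0.23), in the authors' deposited table.

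In eye 1 receptor gene and 1 granule gene fell. The tachykinin receptor gene tacr2 had a log2 fold change of -0.58 (adjusted p = 0.0141, SE 0.15) at a base mean of 50.9 in the authors' deposited table. It lies on the chromosome of cyp1b1, its call was lost (adjusted p = 0.392) with an empirical null, and in brain the authors' deposited table gives it -0.34 (adjusted p = 0.403, SE 0.14). It was the 1 called gene among 48 listed receptors, whose median was -0.07, beside 1.67% of all eye genes called, a share close to that of the list. The gene vgf, which encodes a granin-like precursor of secreted peptides, had -0.37 (adjusted p = 0.0116, SE 0.09) at a base mean of 1659 in the authors' deposited table for eye. Its call was also lost with an empirical null (adjusted p = 0.373), and its brain value in the authors' deposited table was -0.06 (adjusted p = 0.923, SE 0.09). The difference of the vgf effects, eye minus brain, was -0.30 (SE 0.13, unadjusted p = 0.0215, adjusted p = 0.557, normal test).

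The gene vgf is in both the list of 28 listed processing and vesicle genes and that of 24 other neuropeptide genes, and it was the called gene in each, beside 1.67% of all genes. The medians of these lists in eye were -0.06 and -0.07, and of the 28 processing and vesicle genes 12 lay above 0 and 16 below. At an unadjusted p below 0.05 there were 4 of the 28 (14.3%) and 3 of the 24 (12.5%), beside 14.2% of all genes. Other granins in eye had -0.35 (adjusted p = 0.138, SE 0.13) for scg2a, -0.26 (adjusted p = 0.467, SE 0.16) for chgb and 0.03 (adjusted p = 0.907, SE 0.09) for scg3 in the authors' deposited table. The convertase genes had -0.22 (SE 0.14) for pcsk1, -0.30 (SE 0.16) for pcsk2, -0.30 (SE 0.14) for furina and 0.18 (SE 0.13) for furinb in the authors' deposited table for eye, all with an adjusted p of at least 0.302. The carboxypeptidase gene cpe had -0.11 (adjusted p = 0.479, SE 0.07) by the authors' deposited table for eye. The amidating enzyme gene pam had 0.03 (SE 0.06) in the same eye table deposited by the authors.

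**Figure D4:**
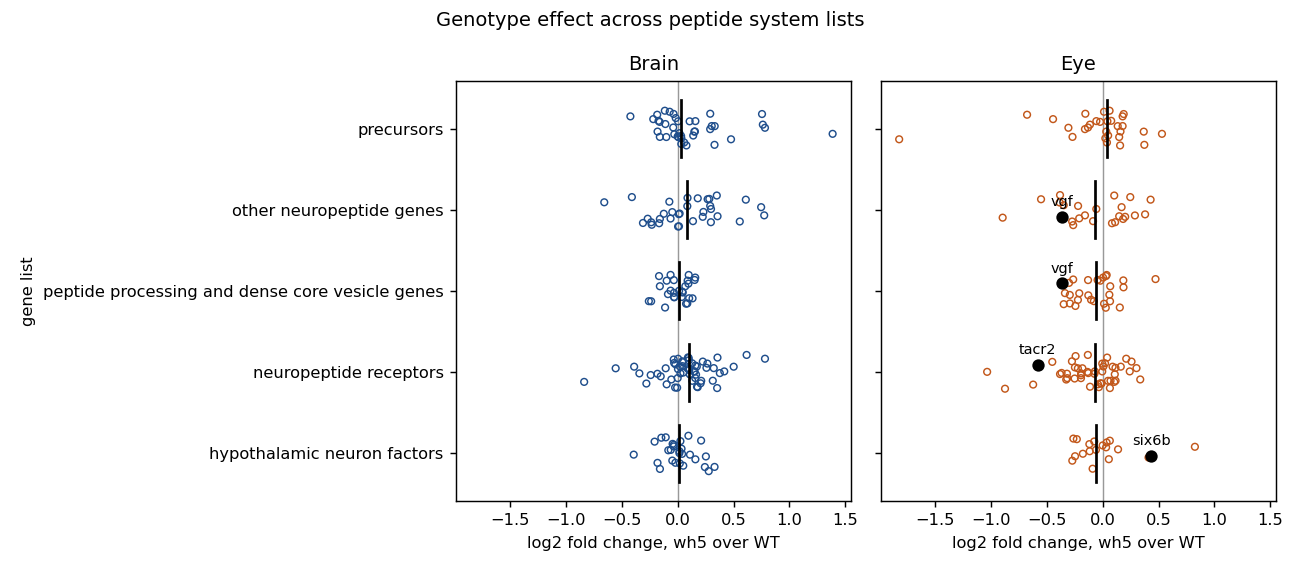
Log2 fold change, wh5 over WT, of single genes (points) in the precursor list and 4 other lists, in brain (left) and eye (right), with a vertical bar at each list's median and filled black points for called genes. No point is filled in brain, and in eye the filled points are vgf (in 2 lists), tacr2 and six6b.

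Markers of other tissue in the samples give the setting of these values. In the brain samples the median of 30 listed retinal markers was -2.31 on the log2 scale, 27 of them below 0, with 4 of the 30 (arr3b, grk7a, opn1sw2 and gnat2) called lower in wh5, beside 0.736% of all genes called in either direction (none of them under an empirical null, adjusted p from 0.064 to 0.171). In the authors' deposited tables arr3b had a base mean of 85.4 in brain and 27940 in eye, and gnat2 255.8 and 75000. The median brain SE percentile of the retinal markers was 99. Whether their transcripts came from cells of the brain or from eye tissue in the brain samples was not tested. In bulk tissue fewer cells of a type and less RNA per cell cannot be told apart. The part of the retinal markers in the precursor values was also not tested. Pituitary markers in brain, where the gland may or may not stay attached, numbered 10 listed genes with no call. Of these 6 lay above 0 and 4 below, with a median of 0.06, and the median base mean of the list was low, at 9.24. The growth hormone gene gh1 had 3.25 (adjusted p = 0.532, SE 1.56) at a base mean of 4.85 in the authors' deposited table. Pineal markers had a median of -0.05 over 9 genes, neuron and synapse markers 0.0091 over 22, hypothalamic factors 0.02 over 28, amacrine and ganglion cell markers 0.02 over 23 and muscle markers -0.17 over 19 in brain, with no call. Immediate early genes, which follow neuronal activity, had a median of -0.28 over 22 in brain, and 4 of the 22 were called, all lower, beside 0.736% of all genes. These were, by the authors' deposited table for brain, npas4a at -0.77 (adjusted p = 1.8e-06, SE 0.13), egr1 at -0.57 (adjusted p = 6.66e-06, SE 0.10), egr4 at -0.80 (adjusted p = 9.34e-05, SE 0.15) and btg2 at -0.57 (adjusted p = 0.00432, SE 0.13).

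In eye, where amacrine and ganglion cells are known to hold several of the peptides, 23 amacrine and ganglion cell markers had no call and a median of -0.08. The 21 neuron and synapse markers had a median of -0.13, with the neurofilament gene nefma as the 1 called gene, beside 1.67% of all eye genes, and lower (not called under an empirical null, where adjusted p = 0.553) at -0.69 (adjusted p = 0.0343, SE 0.20) in the authors' deposited table. The 32 retinal markers had a median of 0.08. Immediate early genes (22 listed, median 0.03), muscle (21, median -0.0014), pineal (8, median -0.02) and pituitary markers (4, median 0.07) had no call in eye. The part of these markers in the precursor values was not tested.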

How the data were processed

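Poly(A) RNA was sequenced from adult zebrafish brains and eyes. Per the submitters' processing notes, reads passed through fastp, STAR and DESeq2 1.32.0 on build GRCz11; no source used here states the model formula or filters. For each gene and organ the authors deposited a log2 fold change with its SE, a base mean (a signal: mean normalised count), a test statistic (a score: fold change over SE), an unadjusted p-value and its adjusted form. Log base 2 is taken from that tool. The deposited adjusted p equals the Benjamini-Hochberg value within a relative difference of 0.00453. Depth per library is unknown, and no model was refitted.

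Members were matched by exact symbol. The 44 members, 9 role groups and 11 other lists were chosen with earlier results of these data known. The text gives every listed member, and of other lists every called gene or, if none, the largest statistics; the remaining granule, convertase and marker genes were named after their values were seen. Marker lists without a call are given by medians, except gh1. One gene that the rule includes is not reported here. Chromosome membership came from the RefSeq table of GRCz12tu, another build, for 96.1% of brain and 96.4% of eye genes. Intervals are the estimate plus or minus the 95% normal range. The test code was run on data simulated with normal errors of the deposited SEs. Because the tests assume such errors, that run does not check their calibration on these data. The planned comparison of precursor proteins and of levels per length was not run. Tools were scipy 1.17.1, numpy 2.4.6, pandas 2.3.3 and matplotlib 3.10.9 in Python 3.11.15.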

Additional observations from a re-analysis of the deposited data

How the results depend on the processing

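No paired analysis was possible because the deposited tables hold no values of single samples, and for the same reason no replicate was left out. The count of called members was 0 in brain and 0 in eye under each of 6 alternatives: an empirical null (77 and 38 of all genes passed), no genes of the cyp1b1 chromosome (65 and 234), a base mean of at least 10 (149 and 321), an adjusted p below 0.1 (205 and 642), a minimum of 0.5 for the absolute log2 fold change (90 and 205) and Benjamini-Yekutieli adjustment (61 and 82). The lowest adjusted p of a member outside the Benjamini-Yekutieli adjustment ranged from 0.127 to 0.336 in brain (trh) and from 0.150 to 0.825 in eye (scg2b). The count of members that differed between organs was also 0 with SEs scaled per organ (0 of all genes passed), with a correlation of 0.20 between organs (50), without that chromosome (7), with base means under 10 left out (14) and at an adjusted p below 0.1 (28), beside 15 as reported. Scaling widened the SEs of both organs, so it could only remove calls. The value 0.20 is the correlation of the organs' test statistics over all shared genes, which is not the same as shared sampling error. The median of the members was 0.03 in brain and 0.03 in eye when centred on all genes, against 0.03 and 0.04. With Benjamini-Yekutieli adjustment the eye calls of vgf (adjusted p = 0.121), tacr2 (0.148), six6b (0.195) and nefma (0.359) were lost. With an empirical null six6b (0.491) and nefma (0.553) were lost as well. Members at low base mean, such as vipb and oxt in eye, have errors too wide for a 2-fold change to be called.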

Other observations

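Of the hypothalamic neuron factors, 19 were listed for eye, and six6b, a homeobox gene of eye and ventral forebrain development, was the 1 called gene among them (lost with an empirical null, adjusted p = 0.491), beside 1.67% of all eye genes called. The authors' deposited table for eye gives it a log2 fold change of 0.44 (adjusted p = 0.0186, SE 0.12) at a base mean of 1220, and that for brain 0.03 (adjusted p = 0.984, SE 0.22) at 79.1. The difference of the six6b effects, eye minus brain, was 0.40 (adjusted p = 0.691, SE 0.25, normal test), so the organs were not shown to differ. The median of the list was -0.06 in eye.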
